A study of Rattus norvegicus with 2 samples.

Results

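The genes described here encode carriers that move amino acids and small organic osmolytes across cell membranes. They were chosen by name, as the probe sets annotated with a single symbol of the families Slc1a, Slc3a, Slc6a, Slc7a, Slc36a, Slc38a and Slc43a, leaving out the cystine carrier gene Slc7a11. The choice gave 60 genes, each read by 1 probe set, of 18166 genes that had a probe set with a single symbol. One of the 60, Slc7a6os, takes its name from lying opposite Slc7a6 and encodes no transporter, so it is counted with the members and described apart.

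Expression was measured by Affymetrix whole-transcript microarray in C6, an established rat glioma cell line grown in medium with serum. There was 1 array of undifferentiated C6 cells (C6) and 1 array of C6 cells treated with small molecules (labelled SMiG). The sample's own labels give the treatment as forskolin, which raises cyclic AMP, rapamycin, which inhibits the kinase complex mTORC1, and I-BET151, which inhibits BET bromodomain proteins. A protocol text attached to both samples instead gives 20 µM of the GSK3 inhibitor CHIR99021 and 100 µM forskolin for 35 days, and the labels do not settle which applies. The study asked whether glioma cells can be turned towards glia by such compounds.

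Each group is a single array, so no difference has a replicate check and no test could be made. The precision is limited by the number of arrays. Values are deposited log2 signals, and each difference is the log2 signal of SMiG minus that of C6, so that −1 is 2-fold lower in SMiG and 1 is 2-fold higher. A gene was called detected where its signal exceeded, on at least 1 array, a floor set from 1343 olfactory and vomeronasal receptor genes taken as silent. The floor was 4.84 on the C6 array and 4.96 on the SMiG array. Where the dimmer array lay at or below its floor, the fold is given as at least the brighter signal over that floor. The receptor genes differed between the arrays with an SD of 0.32, and 147 genes read by 2 detected probe sets gave differences whose gap had an SD of 0.42. These are the only measures of technical spread, and neither holds any variation between cultures.

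Membrane carriers of these families set which amino acids a cell can take up, release or exchange. The Slc3a genes encode heavy subunits that pair with light subunits of the Slc7a family, Slc38a carriers bring in neutral amino acids with sodium, Slc36a carriers work with protons, and Slc43a carriers are facilitators. Slc6a carriers use sodium and chloride, and take up transmitters such as glycine and GABA as well as taurine and creatine, which glia hold as osmolyte and energy buffer. Several of the amino acid carriers are textbook targets of ATF4, the transcription factor that cells activate when amino acids run short.

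Of the 60 genes, 27 were detected (45.0%), against 60.2% of all genes. Above the floor on both arrays were 21 genes, 3 were above it in C6 alone and 3 in SMiG alone. The other 33 were below the floor on both. Lower in SMiG by at least 2-fold were 10 of the 27 detected genes (37.0%), where 6.51% of all 10932 detected genes were. Slc6a8 was the only gene higher by at least 2-fold, 3.70% of the 27 beside 3.19% of all detected genes. At a threshold of 1.5-fold, 15 of the 27 were lower and 2 higher, where 15.1% and 10.4% of all detected genes were. At 3-fold, 5 were lower and 1 higher, where 2.51% and 0.732% were, and with signals raised to the floor 3 were lower, Slc6a6, Slc6a9 and Slc38a2. The median difference over the 27 was −0.67, and over all detected genes it was −0.01. Genes that pass detection through C6 alone tend to be lower in SMiG by that choice, and Slc6a6, Slc7a3 and Slc7a7 passed in this way. With signals raised to the floor, 8 of the 27 were at least 2-fold lower, since Slc7a3 and Slc7a7 have bounds under 2-fold. Among the 21 genes above the floor on both arrays, where this does not apply, 7 were at least 2-fold lower (33.3%, beside 5.34% of all such genes), 1 was at least 2-fold higher (4.76%, beside 3.20%), and the median was again −0.67. Over all 60 measured genes, with those below the floor included, the median difference was 0.10, beside 0.05 over all 18166 genes.

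**Figure D1:**
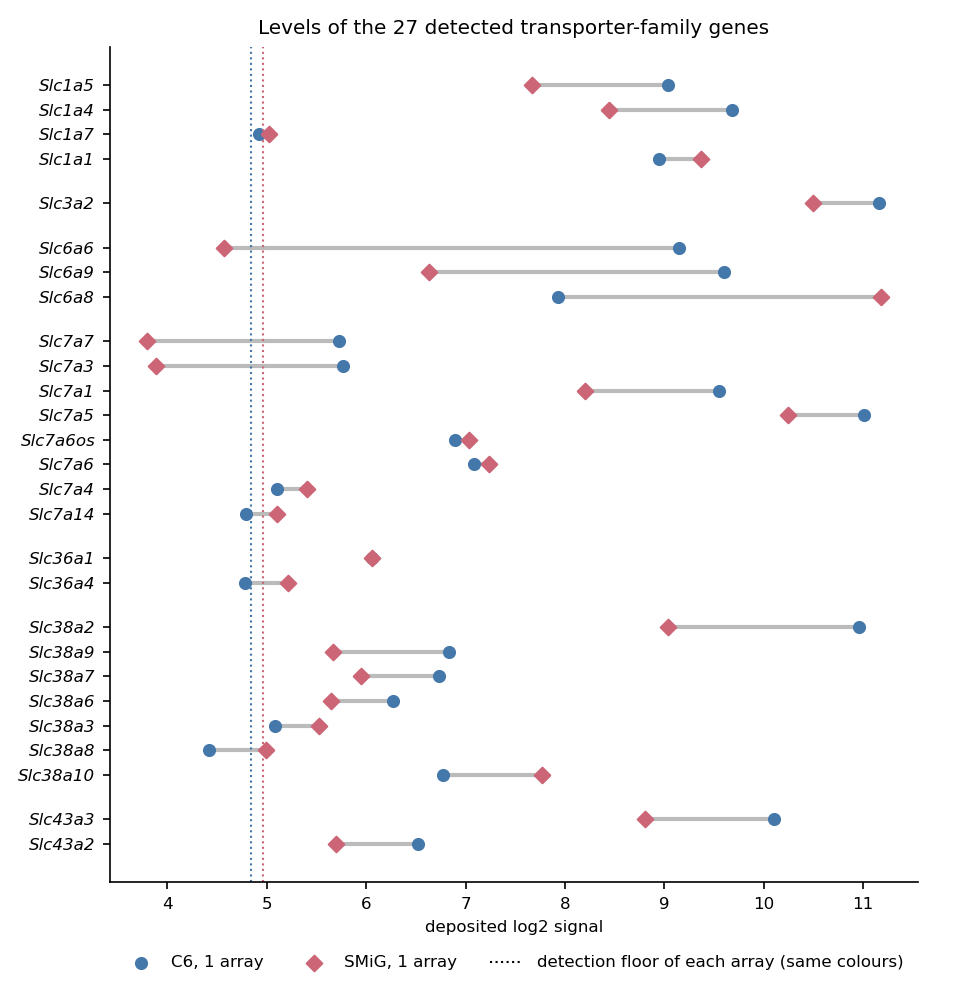
Deposited log2 signal (x axis) of the 27 detected genes in C6 (circles) and SMiG (diamonds), 1 array each, grouped by family, with a dotted line at the detection floor of each array. The longest lines belong to Slc6a6, from 9.15 in C6 to 4.57 in SMiG, and Slc6a8, from 7.93 to 11.18. Levels of different genes are not comparable with each other.

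The families differed in how many members were detected and in what those members did. Detected were 4 of 7 Slc1a genes, 1 of 2 Slc3a genes, 3 of 17 Slc6a genes, 8 of 16 Slc7a genes, 2 of 4 Slc36a genes, 7 of 11 Slc38a genes and 2 of 3 Slc43a genes. By at least 2-fold, 2 Slc1a, 2 Slc6a, 3 Slc7a, 2 Slc38a and 1 Slc43a genes were lower in SMiG by their measured values. Of the 3 Slc7a genes only Slc7a1 was above the floor on both arrays, and the bounds of Slc7a3 and Slc7a7 are under 2-fold. No detected Slc3a or Slc36a gene passed that size in either direction. The Slc6a family held the extremes, with its 3 detected genes at −4.58, −2.96 and 3.25, so that its median of −2.96 is the value of its middle gene. Medians of detected genes were −0.57 in Slc1a, −0.31 in Slc7a, −0.62 in Slc38a, −1.06 in Slc43a and 0.22 in Slc36a. Without Slc7a6os the Slc7a median was −0.77. These medians rest on 2 to 8 genes each. Genes of a family are not replicates, so no test between families was made.

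**Figure D2:**
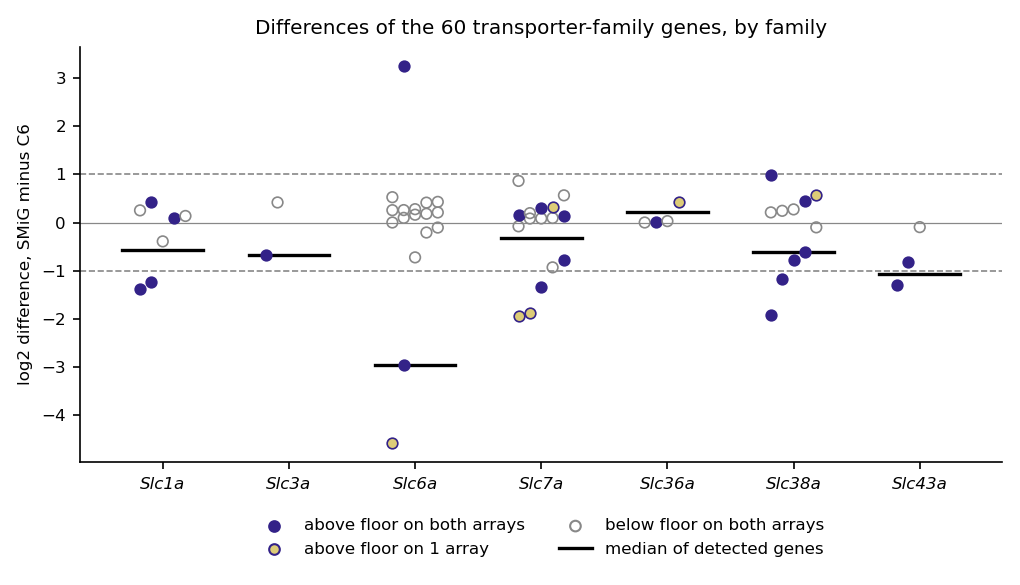
Log2 difference, SMiG minus C6 (y axis), of all 60 genes by family (x axis), each point 1 gene, filled by whether it lay above the floor on both arrays, on 1 or on neither, with a bar at the median of the detected genes and dashed lines at 2-fold. The Slc6a family holds the lowest point, at −4.58, and the highest, at 3.25, while its 14 genes below the floor lie between −0.72 and 0.52.

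The osmolyte and energy carriers of the Slc6a family stood at opposite ends. Slc6a6, encoding the taurine transporter TauT, had a signal of 9.15 in C6 and 4.57 in SMiG. The C6 signal was well above the floor and the SMiG signal below it, so the gene was at least 18.2-fold lower in SMiG. Its exact place among the lowest differences cannot be given, because the SMiG signal is only bounded. Slc6a8, encoding the creatine transporter, had 7.93 in C6 and 11.18 in SMiG, both far above the floor. It was 9.51-fold higher in SMiG and ranked 5 from the highest of the 10932 measured differences. Slc6a12, which encodes the betaine and GABA transporter of osmotic adaptation, was not analysed here.

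Slc6a9, encoding the glycine transporter GlyT1, which glia use to clear glycine, had 9.60 in C6 and 6.64 in SMiG. The gene was above the floor on both arrays and 7.78-fold lower in SMiG, rank 38 from the lowest by measured values. The other 14 Slc6a genes were below the floor on both arrays, with signals from 3.33 to 4.95. They include Slc6a5, encoding the neuronal glycine transporter GlyT2, the GABA transporter genes Slc6a11 and Slc6a13, and Slc6a2, Slc6a3 and Slc6a4, which encode the carriers of noradrenaline, dopamine and serotonin. Slc6a7, for proline, and the amino acid carrier genes Slc6a14, Slc6a15, Slc6a18, Slc6a19, Slc6a20a, Slc6a20b and Slc6a21 complete them. Slc6a20a came closest to the floor, at 4.95 in SMiG. Slc6a20a and Slc6a20b are close copies, and how their probes separate them was not tested.

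In the Slc1a family the exchangers of neutral amino acids were lower and the detected glutamate carriers were not. Slc1a5, encoding ASCT2, an exchanger of glutamine, had 9.04 in C6 and 7.66 in SMiG and was 2.59-fold lower. Slc1a4, encoding ASCT1, an exchanger of serine and alanine, had 9.68 and 8.44 and was 2.36-fold lower. Both genes were well above the floor on each array. Slc1a1, encoding the glutamate carrier EAAC1, had 8.95 in C6 and 9.37 in SMiG, a difference of 0.42, and Slc1a7, another glutamate carrier gene, lay just above the floor at 4.92 and 5.02. The glutamate transporter genes that define astrocytes were below the floor on both arrays, Slc1a2 (GLT-1) at 4.26 in SMiG and 0.25 lower in C6, and Slc1a3 (GLAST) at 4.40 in C6 and 4.01 in SMiG, as was Slc1a6.

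Slc38a2 had the largest difference among the detected Slc38a carriers. It encodes SNAT2, the system A carrier that cells induce when amino acids are scarce or the medium is hypertonic. Its signal was 10.96 in C6 and 9.04 in SMiG, 3.79-fold lower and rank 160 from the lowest. Slc38a9, encoding a lysosomal carrier that reports arginine to mTORC1, had 6.83 in C6 and 5.66 in SMiG and was 2.25-fold lower. Slc38a7, another carrier of the lysosomal membrane, was at 6.74 and 5.95 (−0.79), and Slc38a6 at 6.27 and 5.65 (−0.62). In the other direction, Slc38a10 had 6.77 in C6 and 7.76 in SMiG, a difference of 0.99 that lies just inside 2-fold. Slc38a3, encoding the glutamine carrier SNAT3, was at 5.09 and 5.52 (0.44), and Slc38a8 was above the floor in SMiG alone, at 4.99, with a bound of at least 1.11-fold higher. Slc38a1, Slc38a4, Slc38a5 and Slc38a11 were below the floor on both arrays, with signals from 3.03 to 4.34.

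Among the cationic amino acid carriers of the Slc7a family, 2 were at least 2-fold lower by their measured values. Slc7a1, encoding CAT1, the general carrier of arginine and lysine, had 9.55 in C6 and 8.21 in SMiG and was 2.53-fold lower. Slc7a3, encoding CAT3, had 5.77 in C6 and 3.89 in SMiG, below the floor there, so that a measured difference of −1.88 gives a bound of at least 1.75-fold lower. Slc7a2, encoding CAT2, and Slc7a3l1 were below the floor on both arrays, Slc7a2 at 4.64 and 3.71. The relatives Slc7a4, at 5.11 and 5.40, and Slc7a14, above the floor in SMiG alone at 5.11, were within 2-fold.

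The heavy subunit and the light subunits it carries did not share one pattern. Slc3a2, encoding the heavy subunit 4F2hc (CD98), had 11.16 in C6 and 10.49 in SMiG, 1.59-fold lower, and Slc7a5, encoding its partner LAT1, which takes up large neutral amino acids such as leucine, had 11.01 and 10.24, 1.71-fold lower. Slc7a7, encoding the light subunit y+LAT1, was above the floor in C6 alone, at 5.72 against 3.79 in SMiG, with a bound of at least 1.70-fold lower. Slc7a6, encoding y+LAT2, was at 7.08 and 7.24, a difference of 0.16 that is smaller than the SD of the silent genes. The xCT gene Slc7a11, left out of the members but a light subunit of the same heavy chain, had 9.39 in C6 and 5.63 in SMiG. The light subunit genes Slc7a8 (LAT2), Slc7a9, Slc7a10, Slc7a12, Slc7a13 and Slc7a15 were below the floor on both arrays, as was Slc3a1, the heavy subunit gene of kidney and gut. Slc7a12 had the largest positive difference among the genes below the floor, 0.86, at 2.99 in C6 and 3.85 in SMiG. Slc7a6os was at 6.89 and 7.04.

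Both detected facilitators of the Slc43a family were lower. Slc43a3, encoding a carrier of purine bases, had 10.10 in C6 and 8.80 in SMiG and was 2.46-fold lower, and Slc43a2, encoding LAT4, a carrier of branched-chain amino acids, had 6.53 and 5.70 and was 1.77-fold lower. Slc43a1, encoding LAT3, was below the floor on both arrays. The detected proton-coupled carriers were within 2-fold. Slc36a1, encoding the lysosomal carrier PAT1, was at 6.06 on both arrays, and Slc36a4 was above the floor in SMiG alone, at 5.22, with a bound of at least 1.30-fold higher. Slc36a2 and Slc36a3 were below the floor.

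Members that lie next to each other in the genome were compared in 9 pairs separated by at most 3 coding genes, of which the following include a detected gene. In the RefSeq order of protein-coding genes on rat assembly GRCr8, Slc38a2 lies between Slc38a1 and Slc38a4 with 0 other coding genes between them. Only Slc38a2 of the 3 was detected, and the differences were 0.24 for Slc38a1, −1.92 for Slc38a2 and 0.21 for Slc38a4. Slc43a1 and Slc43a3 are separated by 1 coding gene and stood at −0.10 and −1.30, the first below the floor. Slc36a1 was detected and its neighbours Slc36a2 and Slc36a3 were not. Slc7a6 and Slc7a6os, also adjacent, were alike at 0.16 and 0.14. Whether probes can tell the strands of this last pair apart was not tested.

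Promoter sequences of GRCr8, from 250 bases before to 50 after the RefSeq start, matched 45 of the 60 genes by gene number. Not matched were Slc1a1, Slc1a5, Slc6a2, Slc6a4, Slc6a13, Slc6a15, Slc7a2, Slc7a3, Slc7a3l1, Slc7a4, Slc7a13, Slc38a3, Slc38a10, Slc38a11 and Slc43a3. The element bound by ATF4 with C/EBP proteins was searched on both strands as TGATGNAA, because several of the lower genes are textbook targets of ATF4. It stood in 3 of the 45 member promoters (6.67%) and in 4.16% of the 27457 genes with a promoter in the table. Of the 10 genes at least 2-fold lower, 7 had a promoter and 2 of these held the element, Slc1a4 and Slc7a1. The third was Slc38a1, below the floor on both arrays. The element was chosen with the lower genes known, so its count among them is not independent of that choice. The 3 stretches are shown 5′ to 3′ on the strand of the gene, with the matched bases in capitals and up to 20 bases on each side, to let the element be read in its surroundings. All lie upstream of the annotated start of their gene: that of Slc1a4 at chr14:98761770-98761812, minus strand, that of Slc7a1 at chr12:11664438-11664485, plus strand, and that of Slc38a1 at chr7:129681516-129681563, minus strand.
Slc1a4: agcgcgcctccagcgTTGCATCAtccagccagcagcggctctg
Slc7a1: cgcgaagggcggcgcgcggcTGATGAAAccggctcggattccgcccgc
Slc38a1: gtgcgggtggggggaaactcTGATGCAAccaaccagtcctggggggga
In Slc1a4 the match is on the opposite strand and begins 235 bases before the start. In Slc7a1 it begins 30 bases and in Slc38a1 142 bases before the start. A match is a run of letters and not a measured binding site, and elements outside these windows were not searched.

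The palindromic cAMP response element TGACGTCA stood in 1 member promoter, that of Slc38a6 (2.22% of 45, beside 549 of all 27457 genes), and in none of the 7 lower genes with a promoter. The NFAT core TGGAAA, the sequence shared by NFAT5, the factor of osmotic adaptation, and its relatives, stood in 10 of 45 (22.2%, beside 24.0% of all genes), so its share was no higher than the background. It is shown for Slc6a6, the gene with the largest difference here, where it lies on the opposite strand and begins 156 bases before the start, within chr4:125752326-125752371, plus strand.
Slc6a6: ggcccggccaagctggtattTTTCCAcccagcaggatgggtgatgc
Neither of the other motifs contains these letters.

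**Figure D3:**
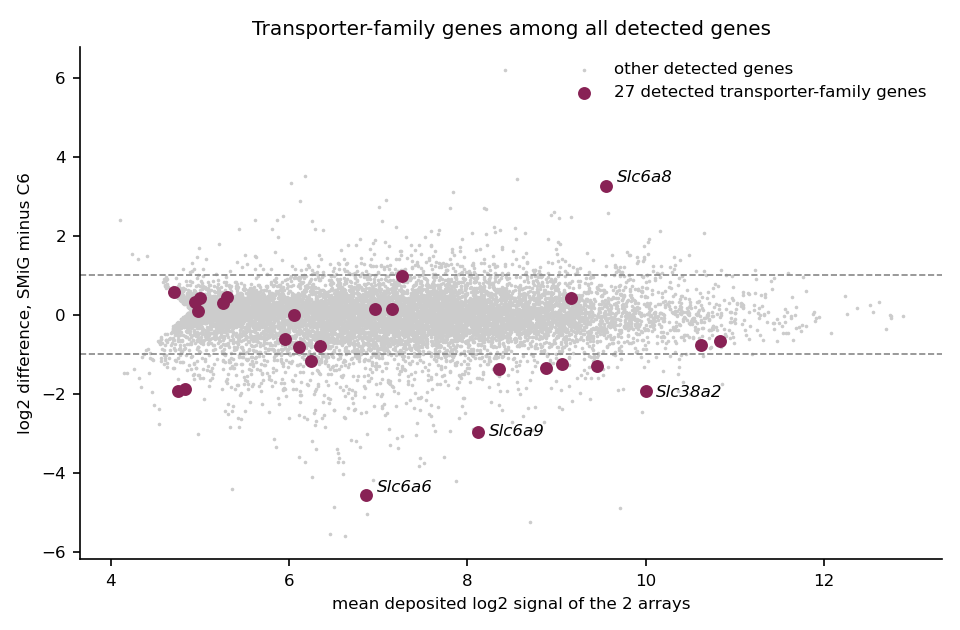
Log2 difference, SMiG minus C6 (y axis), against the mean deposited log2 signal of the 2 arrays (x axis), each point 1 detected gene, with the 27 transporter-family genes as large points and dashed lines at 2-fold. Named in the plot are Slc6a8 at 3.25, Slc6a6 at −4.58, Slc6a9 at −2.96 and Slc38a2 at −1.92. Slc7a7 at −1.93 and Slc7a3 at −1.88, both below the floor in SMiG, lie about as low as Slc38a2.

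Partner genes were read from 8 lists. These cover enzymes that make or use the carried molecules, amino acid response and sensing, osmotic response, and other transporters. Slc5a3, Shmt2, Pycr1 and Aldh18a1 each stand in 2 lists, so the counts are not separate. Counts are given beside the 6.51% and 3.19% of all detected genes that were at least 2-fold lower and higher. Detected creatine genes had positive differences, as did Slc6a8, but not all were of clear size. Of 4 detected genes for creatine synthesis and creatine kinases, 2 were at least 2-fold higher and none lower, with a median of 0.87. Gatm, encoding the first enzyme of creatine synthesis, had 8.23 in C6 and 9.77 in SMiG and was 2.92-fold higher. Ckb, encoding the brain creatine kinase, had 9.69 and 11.09 and was 2.64-fold higher. Gamt, encoding the second enzyme, was at 7.67 and 8.02, and Ckm, the muscle kinase, at 5.68 and 5.76. The differences of Gamt and Ckm, 0.35 and 0.08, were smaller than the SD of 0.42 between probe sets of a gene.

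The detected genes of taurine synthesis had positive differences, opposite in sign to that of the taurine carrier gene Slc6a6. Of 3 detected genes, 1 was at least 2-fold higher and the median was 0.72. Csad, encoding the decarboxylase that makes hypotaurine, had 7.11 in C6 and 8.72 in SMiG and was 3.06-fold higher. The dioxygenase genes Ado, at 6.93 and 7.65, and Cdo1, at 5.17 and 5.73, were within 2-fold.

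In the list for osmotic response and cell volume, 4 of 19 detected genes were at least 2-fold lower (21.1%) and none higher, with a median of −0.21. Slc5a3, encoding the carrier of the osmolyte myo-inositol, had 7.22 in C6 and 5.83 in SMiG and was 2.63-fold lower. The others were Lrrc8c, encoding a subunit of the volume-regulated anion channel, at −1.32, the chaperone gene Hspa4l at −1.26 and the water channel gene Aqp1 at −1.25. Nfat5 was at 9.18 and 8.33, a difference of −0.85, Lrrc8b, encoding another subunit of that channel, was at −0.75 and the kinase gene Stk39 at −0.68. Akr1b1, encoding the aldose reductase that makes sorbitol, was at −0.39, and Lrrc8a, encoding the obligatory subunit of the same channel, at 0.49. Akr1b1 and Lrrc8a were named after their values were seen.

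The amino acid response list had the most low members. All 22 detected genes had a negative difference, where 50.3% of all detected genes did, and 13 (59.1%) were lower by at least 2-fold. Their median was −1.45. The lowest were Nupr1, at least 15.8-fold lower, Trib3, at least 12.7-fold, and Cth, at least 11.0-fold, followed by Pycr1, for the last step of proline synthesis, 9.15-fold, and Chac1, which degrades glutathione, 7.36-fold. Asns was at −2.42, Vldlr at −2.35, Mthfd2 at −1.92, Shmt2 at −1.91, Aldh18a1 at −1.61, Cebpg at −1.40 and Atf5 at −1.08, and Psph, for the last step of serine synthesis, was 2.84-fold lower. Of those within 2-fold, the largest differences were Phgdh at −0.91, Ddit3 at −0.85 and Eif2ak4, which encodes the kinase that senses uncharged transfer RNA, at −0.65. Earlier results on these arrays had already shown ATF4 target genes to be low in SMiG, so this count is not independent of them.

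The list for amino acid sensing by mTORC1 was not low, with 2 of 24 detected genes at least 2-fold lower (8.33%) and none higher, and a median of 0.04. The exceptions were Eif4ebp1, encoding the translation repressor 4E-BP1, at 10.27 in C6 and 8.08 in SMiG (4.58-fold lower), and Lars1, encoding the leucyl-transfer RNA synthetase, at 10.04 and 8.51 (2.89-fold lower). Of the others, Sesn1 at 0.59, Nprl3 at −0.58 and Lamtor1 at 0.53 differed most. These genes encode a sestrin, which restrains mTORC1, a subunit of the GATOR1 complex, which does so too, and a subunit of its lysosomal anchor.

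Among enzymes of glutamine, glutamate, proline and branched-chain amino acids, 4 of 16 detected genes were lower by at least 2-fold (25.0%) and 1 was higher, the median being −0.12. Bcat1, encoding the cytosolic branched-chain aminotransferase, had 9.38 in C6 and 5.54 in SMiG and was 14.2-fold lower. It was accompanied by the proline synthesis genes Pycr1 and Aldh18a1 given above and by Glud1, encoding glutamate dehydrogenase, at −1.06. Aldh4a1, which works in proline breakdown, was higher at 5.84 and 6.91. Gpt2, Got1 and Got2, encoding aminotransferases of glutamate, were at −0.93, −0.80 and −0.61. In the list for glycine and GABA metabolism, 2 of 4 detected genes were at least 2-fold lower, Shmt2 and Gad1, which encodes the enzyme that makes GABA, at 8.52 and 6.44, and the median was −1.18. Of the other detected genes there, Dld was at −0.44 and Aldh5a1 at 0.33.

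Other transporters and accessory genes included 10 detected genes, 4 of them at least 2-fold lower (40.0%) and none higher, with a median of −0.19. Besides Slc7a11 and Slc5a3, these were Ctns, encoding the lysosomal cystine exporter, at 8.81 in C6 and 6.07 in SMiG (6.68-fold lower), and Slc15a3, encoding a lysosomal carrier of peptides and histidine, at 6.59 and 4.97 (3.08-fold lower). Slc32a1, the vesicular carrier of GABA and glycine, at 0.73 and Slc15a4 at 0.61 were the next in size. Slc17a7 was below the floor in SMiG, at 4.66, and just above it in C6, at 4.87, so no direction is read from it. This list also holds Slc7a6os.

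**Figure D4:**
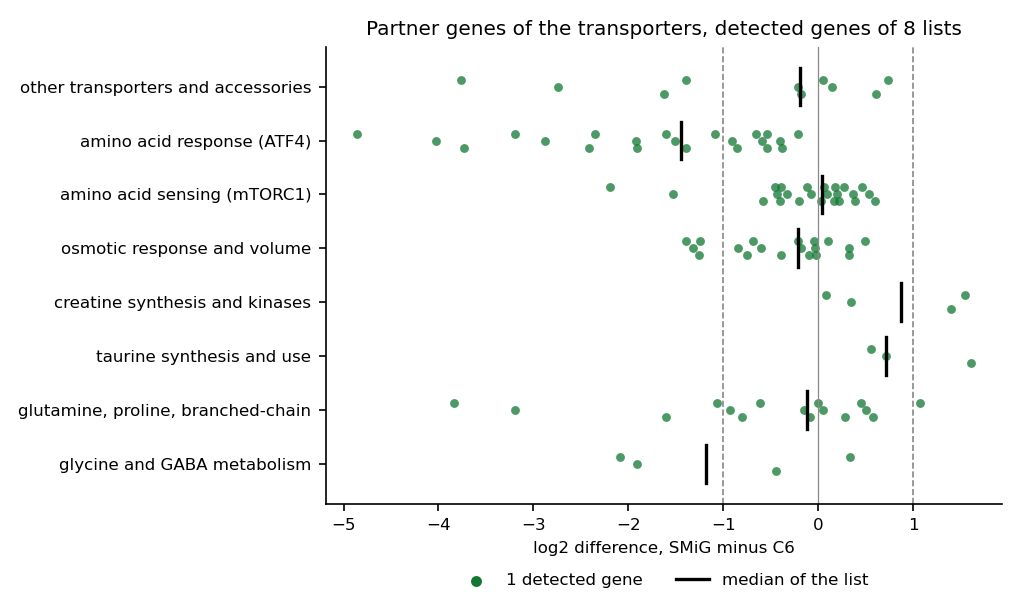
Log2 difference, SMiG minus C6 (x axis), of the detected genes of 8 lists (y axis), each point 1 gene, with a bar at the median of the list and dashed lines at 2-fold. The amino acid response list lies wholly below 0 with a median of −1.45, and the creatine and taurine lists lie wholly above 0, with medians of 0.87 and 0.72. The creatine list shows 4 genes and the taurine list 3.

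Markers of the cell type were read on the same arrays. Of the glioma line markers, Vim, Nes and Cd44 were at 12.74, 8.74 and 9.09 in C6 and at 12.74, 8.59 and 9.15 in SMiG, and S100b was 2.30-fold higher in SMiG, at 9.67 and 10.87. Of the astrocyte markers 4 of 8 were detected. Fgfr3 was 3.58-fold higher in SMiG beside S100b, Gja1 was 4.92-fold lower and Gfap 1.48-fold lower, while Aqp4, Slc1a2, Slc1a3 and Sox9 were below the floor on both arrays. Oligodendrocyte markers had a mean signal over 7 genes of 5.85 in C6 and 6.87 in SMiG, with a median difference over the 7 of 0.50. Sox10, Cnp and Enpp2 were at least 2-fold higher in SMiG. Mbp, Mog and Mag were above the floor in SMiG alone, but close to it. With their C6 signals raised to the floor, their differences were 0.16, 0.12 and 0.33. These are smaller than the SD of 0.42 between probe sets of a gene, so no clear rise is read from them. Opalin was below the floor on both arrays. Mean signals of the neuron, microglia and vascular lists were 5.19, 5.05 and 5.91 in C6 and 4.81, 4.76 and 4.97 in SMiG. At least 2-fold lower were 1 of 4 detected neuron genes (Gad1) and 1 of 3 microglia genes (Cd14). So were 2 of 3 vascular genes (Flt1 and Pdgfrb), and none of these lists held a gene at least 2-fold higher. Over all detected genes the share lower was 6.51% and the share higher was 3.19%. The part of these markers in the transporter differences was not tested. As bulk RNA was measured, fewer cells with a transcript and less of it per cell cannot be told apart.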

How the data were processed

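Total RNA of 2 samples, C6 and SMiG, was labelled with biotin for whole-transcript arrays, per the labels' protocols. The values are log2 expression per probe set as deposited. Their log base is not given in the sources used here, nor are background correction and normalization. Base 2 was inferred from values of 1.26 to 13.09, which exceed 11.09, the natural log of a 16-bit scanner's maximum. The median gap between the sorted columns was 0.036.

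Genes were named through the platform's probe annotation. Of 36685 probe sets, 18511 had 1 symbol, 575 several and 17599 none, and those with 1 were used. Probe sets of a gene were averaged. All 60 members matched RefSeq (GRCr8) by gene number, with 0 symbols changed. The floor was the 95th percentile of the receptor genes, 5.88% of which were detected and 0.819% of which passed 2-fold.

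Members, lists and transport roles were chosen with earlier results of these data known. Named are members with a difference of at least 1 (log2) and the extremes of each family, list genes past that size and up to 3 more per list. Further members were named by family. Fold counting was checked on simulated data. Alternatives covered floor, centring, lowess (span 0.3), quantile normalization, probe set choice, thresholds and the member rule. Python 3.11.15, numpy 2.4.6, pandas 2.3.3, statsmodels 0.14.6 and matplotlib 3.10.9 were used.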

Additional observations from a re-analysis of the deposited data

How the results depend on the processing

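Of 321 values recomputed under the alternatives, 299 moved by less than the SD of the silent genes or, for counts, by at most 1.5 times, and 22 moved further. Many of the 299 could not move. A floor that only selects genes leaves the difference of a single named gene unchanged. Named genes that failed a stricter floor were left out and not counted as moved. So 32 values were compared at the 99th percentile floor and 31 with genes above the floor on both arrays, against 36 with no floor. The sign changed in 9, 7 of them with genes below the floor included and 2 with only genes above it on both arrays. Centring, the brightest probe set and each probe set alone moved none past these limits. For the members this follows, since each has 1 probe set and the median of all genes is near 0. List genes can have several probe sets, and list medians shifted within the limits. With each probe set alone, that of the amino acid response list was −1.50. With genes below the floor included, the member median was 0.10, and family medians were 0.10 (Slc1a), −0.13 (Slc3a), 0.18 (Slc6a), 0.089 (Slc7a) and 0.21 (Slc38a), each but Slc3a with its sign turned. The creatine list was then at 0.35, and the glycine and GABA list, at 0.058, and the list of other transporters, at 0.049, had turned. These medians are lowered in size by the undetected genes that are added. Over all genes the median was then 0.05. With only genes above the floor on both arrays, chosen after seeing the data, the Slc6a and Slc7a medians both turned to 0.14, as Slc6a6, Slc7a3 and Slc7a7 drop out, and the amino acid response median was −1.08. At the 99th percentile floor, Slc1a was at −1.24 and the creatine, taurine and glycine lists at 1.40, 1.16 and −1.91, over fewer genes. Slc38a10 passed 2-fold after lowess or quantile normalization, which gave 2 higher genes each, as did a 1.5-fold threshold. A 3-fold threshold left 5 lower genes. With values raised to the floor, Slc6a6 was at −4.19, Slc7a3 at −0.81 and Slc7a7 at −0.76, and 8 genes stayed at least 2-fold lower. No paired analysis was possible because each group has 1 array. Signals near the floor, such as Slc1a7 and Slc38a8, limit what can be read, and counts of genes carry no error.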
